A study of Mus musculus with 57 samples.

Results

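The genes that carry glucose into the cell and convert it to pyruvate, lactate and pentose phosphates were followed in single mouse embryos of 3 lines, named for Taf5, Taf12 and Taf13. The set has 32 genes, chosen by symbol from the 56520 genes of the expression table: 4 membrane transporters, 8 genes of glucose phosphorylation and the fructose steps, 9 genes from aldolase to pyruvate kinase, 5 genes that set the fate of pyruvate and 6 genes of the pentose phosphate pathway. All 32 symbols were found. Each library is the RNA of 1 embryo, given as FPKM, the fragments counted per gene scaled for gene length and library size. Groups are named as the labels name them: MUT, HET and WT. The Taf5 line gave blastocysts of embryonic day 3.5 (E3.5; MUT n = 4, WT n = 3). The Taf12 line gave E3.5 blastocysts (MUT n = 3, HET n = 5, WT n = 5) and outgrowths (OG; MUT n = 4, HET n = 3, WT n = 4), E3.5 blastocysts cultured singly for 72 h in DMEM with fetal bovine serum. The Taf13 line gave E3.5 blastocysts (MUT n = 3, HET n = 4, WT n = 4) and E6.5 embryos (MUT n = 2, HET n = 9, WT n = 4). The study's design text calls the 3 alleles knockouts; neither it nor the labels describe the alleles, the strain or the litters, and no label names a treatment. With no litters named, p-values measure the spread between these embryos only. Values with ± are means and SD over the libraries of a group.

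Glycolysis splits glucose into pyruvate in the cytosol and yields ATP without oxygen, while the pentose phosphate pathway branches off at the first phosphorylated sugar and yields NADPH and ribose for nucleotides. Early cleavage embryos live on pyruvate, and glucose uptake and lactate release increase around the blastocyst stage and implantation. Many genes of the pathway are known targets of HIF1, the transcription factor of the hypoxia response, whose binding core is ACGTG, and of MYC, which binds CACGTG. TAF5 and TAF13 are subunits of TFIID, the factor that recognises core promoters, and TAF12 is shared by TFIID and the coactivator SAGA.

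Recovered reads ran from 4.55 M in outgrowth MUT 3 to 21.6 M in an E6.5 HET embryo. Taf5 had 0 reads in the 4 libraries labelled Taf5 MUT and 35.7 ± 20.1 FPKM (SD, n = 3) in WT. For the other 2 lines the targeted transcript was not called lower in MUT. Taf12 was at 62.2 ± 5.6 FPKM in blastocysts labelled Taf12 MUT and 44.6 ± 6.64 in WT (adjusted p = 0.229), and in outgrowths it was higher, at 52.9 ± 0.82 in MUT and 23.2 ± 3.7 in WT (adjusted p = 0.000488, log2 fold change 1.17, SE 0.17). Taf13 was at 24.4 ± 10.0 FPKM in blastocysts labelled Taf13 MUT and 37.5 ± 8.64 in WT (adjusted p = 0.552), and at 30.7 ± 5.05 in MUT and 32.4 ± 10.3 in WT at E6.5 (adjusted p = 0.956). For these 2 lines MUT therefore means a library labelled MUT throughout, and every direction below rests on that label. Mitochondrially encoded transcripts took 1.45 to 2.17% of reads in outgrowth MUT against 0.951 to 1.33% in WT, and 0.38 and 1.12% in E6.5 MUT against 0.108 to 0.529% in WT. In Taf12 MUT blastocysts 1 library stood apart, with 11875 genes above 0 and 3.59% mitochondrial reads. The FPKM imply lengths of 69.8 to 9797 bases for the members, unlike their annotated exons, so FPKM are compared within a gene only. The sums over cell type markers below are the exception. They add FPKM of different genes, so they lean on the genes with high values. Levels of different genes are compared as reads per kilobase of annotated exon and per M recovered reads, below called length-corrected reads.

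The promoters below show the start regions of 6 members that were lower in Taf12 MUT outgrowths, 4 with and 2 without the HIF1 core, and of the 2 that were higher there. Each runs 5′ to 3′ from 250 bases before to 50 bases after a RefSeq transcription start (GRCm38.p6), in lower case, with the HIF1 core ACGTG or its reverse complement CACGT in capitals.
Slc16a3 (chr11:120948817-120949116, plus strand): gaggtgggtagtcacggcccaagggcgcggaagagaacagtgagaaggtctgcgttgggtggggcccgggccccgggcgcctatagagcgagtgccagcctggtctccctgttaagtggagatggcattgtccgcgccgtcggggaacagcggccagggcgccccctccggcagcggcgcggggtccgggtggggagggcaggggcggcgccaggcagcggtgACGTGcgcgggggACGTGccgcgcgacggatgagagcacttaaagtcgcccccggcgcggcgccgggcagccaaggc
Ldha (chr7:46845554-46845853, plus strand): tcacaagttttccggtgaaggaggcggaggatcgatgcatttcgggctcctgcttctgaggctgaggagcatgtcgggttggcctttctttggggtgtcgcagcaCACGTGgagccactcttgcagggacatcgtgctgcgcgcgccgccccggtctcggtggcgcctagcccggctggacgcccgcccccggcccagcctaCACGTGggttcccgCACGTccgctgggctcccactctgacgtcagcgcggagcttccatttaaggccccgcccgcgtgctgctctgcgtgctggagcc
Pgk1 (chrX:106186850-106187149, plus strand): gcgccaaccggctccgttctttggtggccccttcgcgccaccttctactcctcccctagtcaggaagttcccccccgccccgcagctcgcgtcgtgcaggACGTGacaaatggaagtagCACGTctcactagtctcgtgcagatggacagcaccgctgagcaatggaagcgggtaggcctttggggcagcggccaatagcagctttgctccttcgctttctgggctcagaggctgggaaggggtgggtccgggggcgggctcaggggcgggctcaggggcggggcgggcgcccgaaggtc
Pgam1 (chr19:41911621-41911920, plus strand): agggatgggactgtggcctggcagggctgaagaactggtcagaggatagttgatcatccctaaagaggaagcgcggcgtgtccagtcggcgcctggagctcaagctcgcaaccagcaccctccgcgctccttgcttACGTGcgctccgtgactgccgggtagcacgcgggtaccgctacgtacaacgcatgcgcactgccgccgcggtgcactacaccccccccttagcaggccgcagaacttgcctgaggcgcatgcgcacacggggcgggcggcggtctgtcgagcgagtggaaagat
Pfkl (chr10:78009758-78010057, minus strand): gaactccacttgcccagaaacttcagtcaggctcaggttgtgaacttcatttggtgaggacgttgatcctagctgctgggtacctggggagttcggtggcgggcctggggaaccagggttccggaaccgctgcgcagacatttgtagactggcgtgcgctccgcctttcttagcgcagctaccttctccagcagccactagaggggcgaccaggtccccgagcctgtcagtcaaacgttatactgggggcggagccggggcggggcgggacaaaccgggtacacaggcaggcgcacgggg
Pfkp (chr13:6648722-6649021, minus strand): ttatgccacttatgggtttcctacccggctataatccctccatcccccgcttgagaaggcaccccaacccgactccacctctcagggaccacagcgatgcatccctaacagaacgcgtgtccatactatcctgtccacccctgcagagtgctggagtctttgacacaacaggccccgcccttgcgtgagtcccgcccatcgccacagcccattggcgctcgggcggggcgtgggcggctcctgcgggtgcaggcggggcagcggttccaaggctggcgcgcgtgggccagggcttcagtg
Bpgm (chr6:34476106-34476405, plus strand): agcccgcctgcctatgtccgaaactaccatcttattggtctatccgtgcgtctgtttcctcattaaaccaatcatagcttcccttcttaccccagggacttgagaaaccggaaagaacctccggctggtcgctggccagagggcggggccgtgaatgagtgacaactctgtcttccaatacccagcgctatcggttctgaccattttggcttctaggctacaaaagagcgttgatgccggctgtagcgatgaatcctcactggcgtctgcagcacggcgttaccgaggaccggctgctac
Pgls (chr8:71591934-71592233, plus strand): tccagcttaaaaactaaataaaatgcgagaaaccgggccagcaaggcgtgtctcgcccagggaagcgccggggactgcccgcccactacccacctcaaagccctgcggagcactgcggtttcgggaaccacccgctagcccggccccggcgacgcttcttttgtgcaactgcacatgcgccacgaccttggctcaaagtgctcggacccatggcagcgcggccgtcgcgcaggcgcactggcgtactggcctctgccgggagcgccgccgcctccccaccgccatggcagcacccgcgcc
Slc16a3 held the core at 2 places, both on the strand of the gene, Pgk1 at 2, once on each strand, and Pgam1 at 1. Ldha had 5 matches, counting both strands, because a CACGTG holds the core on either strand. The windows of Pfkl, Pfkp, Bpgm and Pgls held none, nor did Eno1 and Pdk1 at any listed start. Of the members with the largest falls, Pfkl and Eno1 thus had no core in these windows. Pkm and Hk1, also among the largest falls, each held 2 matches at a listed start, as Pgk1 did. RefSeq windows were matched to 31 of the 32 members, all but Slc2a3. Searched on both strands at any listed start, ACGTG was in 17 of 31 members (54.8%) and in 29.7% of the 9545 genes tested in outgrowths that had a window. It was in 9 of the 13 members called lower in Taf12 MUT outgrowths (69.2%), in 7 of 14 members not called there (50%), in 32% of all genes called lower and in 27.5% of all called higher. CACGTG, every instance of which also counts as ACGTG, was in 5 of 31 members (16.1%) and 12% of tested genes. TATAAA on the strand of the gene, beginning between positions −45 and −15 from the start, was in 0 of 31 members and 1.57% of tested genes. A match is a string of letters, not a measured binding site.

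Blastocysts had low levels of the lactate end of the pathway, and WT outgrowths and WT E6.5 embryos had high ones. Ldha, which turns pyruvate into lactate, was at 5.53, 2.38, 0.0464, 0.896 and 1.23 FPKM in the 5 Taf12 WT blastocysts, and at 1103, 1202, 1030 and 1392 in the 4 WT outgrowths. Slc16a3, the monocarboxylate transporter that exports lactate, was at 0 to 1.34 FPKM in Taf12 WT blastocysts and 201 to 368 in WT outgrowths. The ranges of these groups lay far apart for both genes. The stages of a line were normalized separately by the authors, so such ratios between stages are a description without a test. The ratio of WT outgrowths to WT blastocysts was 2 or more for 20 of the 32 members, 10 or more for 7 (Slc2a1, Slc16a3, Pfkp, Pfkfb3, Ldha, Ldhb and Pdk1) and below 1 for 7 (Slc2a3, Hk2, Pfkfb2, Pdha1, Pdhb, Pgd and Taldo1). Ldhb and Pfkfb3 were near 0 in WT blastocysts, at up to 0.12 and 0.2 FPKM. Even in WT outgrowths Ldhb reached only 0.26 to 2.24 FPKM. For MUT it was 2 or more for 11 of the 30 members with reads at both stages. The ratio was smaller in MUT than in WT for 23 members, among them Pkm, with 0.569 in MUT and 3.54 in WT, and Eno1, with 2.69 in MUT and 9.02 in WT. Some ratios rest on few reads, such as those of Hk1, with 12 reads in MUT outgrowths, and Pdk1, with 1 read in MUT blastocysts. The shares of all genes were not computed for these ratios, so the counts are not read as particular to the members.

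Per length, glucose transport was led by a different isozyme in blastocysts and outgrowths, and hexokinase by the same one. Of the glucose transporters, Slc2a3 led in Taf12 WT blastocysts (104 ± 56.3 length-corrected reads, against 16 ± 3.73 of Slc2a1; SD, n = 5) and Slc2a1 led in outgrowths, at 419 ± 204 against 26.8 ± 8.48 of Slc2a3 in MUT and at 414 ± 48.5 against 39.1 ± 26 in WT. Hk2 exceeded Hk1, the other hexokinase, in each group of the plot of isozyme levels, with 13.5 ± 4.07 against 0.0347 ± 0.0694 in MUT outgrowths and 25.2 ± 4.33 against 0.808 ± 0.472 in WT outgrowths. Among the phosphofructokinase subunits, the liver type Pfkl led the platelet type Pfkp and the muscle type Pfkm in WT outgrowths, at 62.2 ± 11.1, 26.4 ± 3.53 and 10.8 ± 2.11. That order was absent in MUT outgrowths, where Pfkl was at 10.6 ± 2.25, Pfkp at 14.8 ± 4.01 and Pfkm at 10.7 ± 2.78, with Pfkl and Pfkm apart by less than their SD. Aldoa exceeded Aldoc, and Ldha exceeded Ldhb, in outgrowths and at E6.5 in each of the MUT and WT groups.

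**Figure D1:**
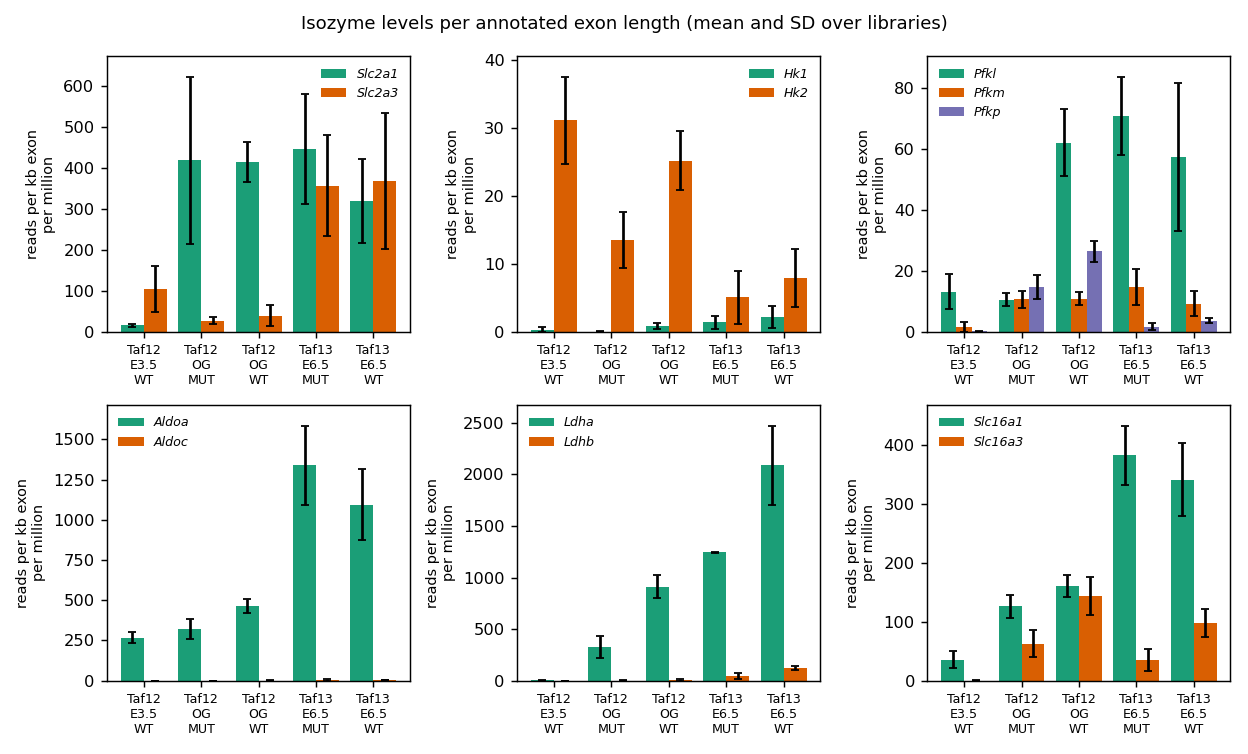
Levels of isozymes as reads per kilobase of annotated exon and per M recovered reads (vertical axis, linear from 0) in 5 groups (horizontal axis); bars are means and lines SD over libraries. Slc2a1 exceeds Slc2a3 in both outgrowth groups and not in WT blastocysts, and the lead of Pfkl over Pfkp and Pfkm in WT outgrowths is missing in MUT outgrowths.

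In outgrowths labelled Taf12 MUT, 13 genes from the hexokinases to lactate dehydrogenase and lactate export fell, Pdk1 among them. The glucose carriers, Gpi1, Tpi1 and 5 of the 6 pentose phosphate genes were not called. Of the 30 members tested, 13 were lower and 2 higher at an adjusted p under 0.05 (limma on log2(FPKM + 1), Benjamini-Hochberg over all 13058 genes tested). Over all genes tested, 19.9% were called lower and 18% higher, and 37.9% were called in all (38.6% by voom). Of the members, 20 had an unadjusted p under 0.05 and 16 had MUT and WT libraries that did not overlap, beside 47.3% and 35.3% of all genes. The median log2 fold change was −0.47 over the members tested and −0.05 over all genes. Ldhb and Pfkfb2 were below the filter of FPKM 1 in 3 libraries. In bulk RNA of whole outgrowths, fewer cells of a type that uses the pathway and less RNA of it per cell cannot be told apart.

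**Figure D2:**
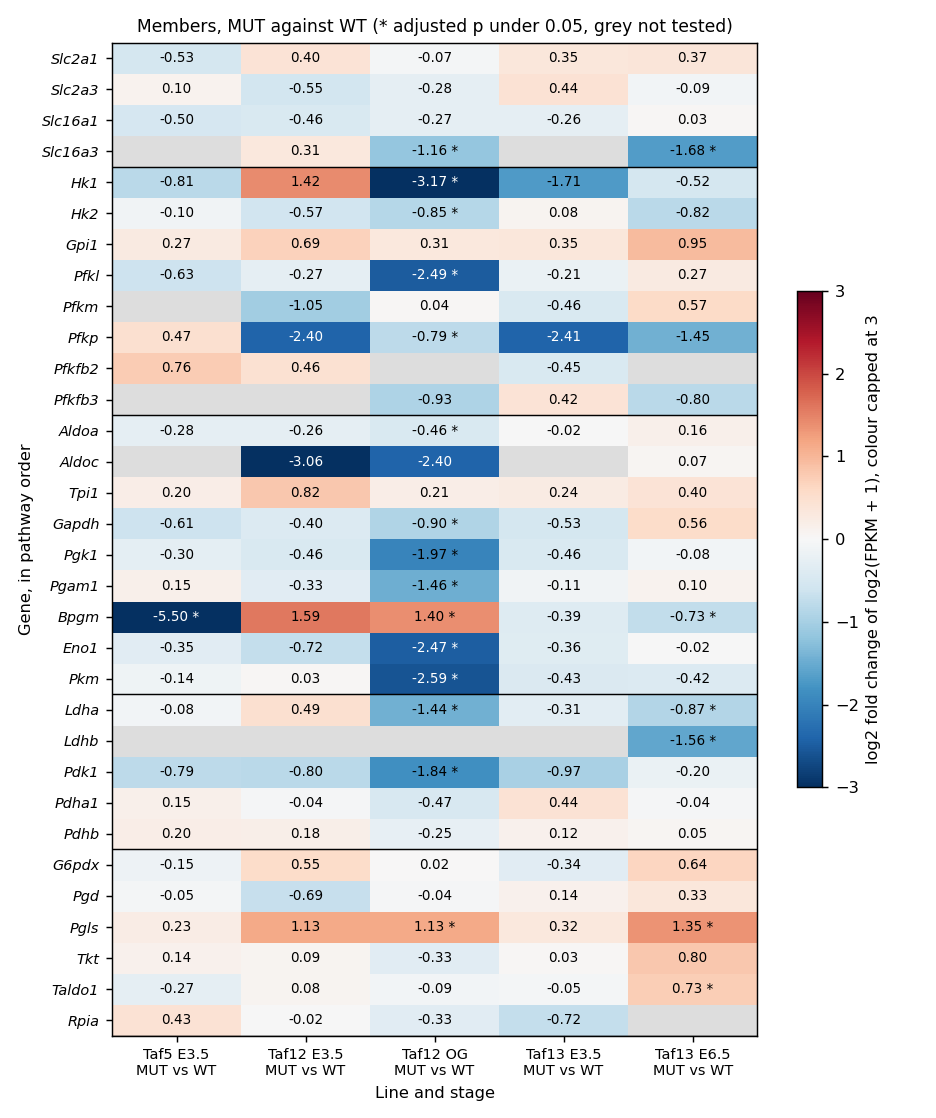
Log2 fold change of log2(FPKM + 1) for MUT against WT (colour, capped at 3, and printed number) of the 32 members (rows, in pathway order, lines between roles) in the 5 combinations of line and stage (columns); stars mark an adjusted p under 0.05 and grey marks members not tested. The Taf12 outgrowth column holds 15 stars, 13 of them on negative values, the Taf13 E6.5 column 6, the Taf5 E3.5 column 1 and the other blastocyst columns none.

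At the cell membrane, the 2 glucose carriers were not called and the lactate exporter fell. Slc2a1 (GLUT1), the basal glucose transporter, was at 2033, 1484, 2574 and 688 FPKM in MUT and 1670, 1515, 1361 and 1884 in WT outgrowths, with overlapping groups and the widest spread in MUT (adjusted p = 0.903, log2 fold change −0.07, SE 0.38). Slc2a3 (GLUT3) was at 30.4 to 75.3 FPKM in MUT and 33.9 to 141 in WT. Slc16a1, a transporter of lactate and pyruvate, was at 132 ± 16.6 in MUT and 159.6 ± 18.4 in WT, not called (adjusted p = 0.103). Slc16a3 was at 180.2, 73.8, 133 and 118 FPKM in MUT, 274, 281 and 228 in HET and 279, 261, 201 and 368 in WT. Every MUT library was below every HET and WT library, and the mean was 2.19-fold lower than in WT (adjusted p = 0.00539, log2 fold change −1.16, SE 0.26).

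Of the 7 tested genes of glucose phosphorylation and the fructose steps, 4 fell: both hexokinases and 2 of the 3 phosphofructokinase subunits. Pfkl was at 133, 154, 90.1 and 152 FPKM in MUT and 594, 883, 700.0 and 771 in WT, 5.58-fold lower and the largest fall of the group beside Hk1 (adjusted p = 1.58e-05, log2 fold change −2.49, SE 0.19). Pfkp was at 1109, 716, 744 and 689 FPKM in MUT and 1441, 1339, 1588 and 1192 in WT, so that the highest MUT library still lay below the lowest WT one (adjusted p = 0.00291, log2 fold change −0.79, SE 0.16). Pfkm, by contrast, was at 12.2, 7.39, 14.1 and 12 in MUT and 11.2, 12.9, 7.98 and 11.8 in WT, with groups that overlapped throughout (adjusted p = 0.907). Whether the subunits differed from each other in their change was not tested. Hk2, the regulated hexokinase, was at 60.7, 91.5, 51.7 and 105 FPKM in MUT and 169, 136, 114 and 125 in WT (adjusted p = 0.022, log2 fold change −0.85, SE 0.25). Hk1 had 12 reads in 1 of 4 MUT libraries and 0 in the others, at 2.24, 0, 0 and 0 FPKM, and 4.12, 21.8, 11.6 and 13.6 in WT (adjusted p = 0.00885, log2 fold change −3.17, SE 0.77). Hk1 passed the filter through its WT libraries. HET outgrowths were also low for Hk1, at 10.5, 0 and 0.33, and its call was lost against WT and HET together (adjusted p = 0.0558). Gpi1, which interconverts glucose and fructose phosphates, was at 878 ± 117 in MUT and 706 ± 48.1 in WT (adjusted p = 0.101). Pfkfb3, a maker of the activator of phosphofructokinase, was at 0 to 0.72 in MUT and 0.778 to 4.12 in WT; it passed the filter through its HET and WT libraries and was not called (adjusted p = 0.0757).

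From aldolase to pyruvate kinase 6 of 9 genes were lower and 1 higher, with a median log2 fold change of −1.46. Pkm, the pyruvate kinase gene, was at 483, 376, 489 and 368 FPKM in MUT, 2663, 2440 and 2022 in HET and 2154, 2710, 2549 and 2906 in WT. It was 6.01-fold lower in MUT than in WT, and each HET library lay near the WT ones (adjusted p = 1.85e-06, log2 fold change −2.59, SE 0.14). Eno1, the enolase before it, was at 571, 386, 452 and 379 in MUT, 2873, 2786 and 2208 in HET and 2197, 2223, 2428 and 3028 in WT, 5.52-fold lower (adjusted p = 4.74e-06, log2 fold change −2.47, SE 0.16). Pgk1, which makes the first ATP of the pathway, was at 15.8, 11.3, 11.2 and 13.9 in MUT and 60.3, 41.5, 53.9 and 61.2 in WT, 4.16-fold lower with no overlap (adjusted p = 2.31e-05, log2 fold change −1.97, SE 0.16). Pgam1, the phosphoglycerate mutase whose window above has 1 core, was at 799, 616, 678 and 589 in MUT and 1847, 1509, 1848 and 2183 in WT (adjusted p = 3.25e-05, log2 fold change −1.46, SE 0.13). Gapdh, often used as a reference gene, was at 298, 229.8, 323 and 242 in MUT and 504, 417, 538 and 584 in WT, 1.87-fold lower (adjusted p = 0.000782, log2 fold change −0.90, SE 0.14). For Pgk1, Pgam1 and Gapdh each MUT library lay below each HET and WT library. Aldoa fell least, at 643, 493.1, 493.4 and 450.0 in MUT and 733, 738, 744 and 629.9 in WT, with 1 MUT library above the lowest WT one (adjusted p = 0.0116, log2 fold change −0.46, SE 0.12). Tpi1, between aldolase and Gapdh, was not lower: it was at 674, 795, 578 and 673 in MUT and 520.3, 597, 567 and 656 in WT (adjusted p = 0.23, log2 fold change 0.21, SE 0.13). Aldoc was at 0 in 2 of the 4 MUT libraries and not called (adjusted p = 0.136). Bpgm, the mutase that makes the side product bisphosphoglycerate, went the other way. It was at 779, 675, 984 and 538 FPKM in MUT, 259, 304 and 254 in HET and 344, 228, 271 and 268 in WT, 2.68-fold higher (adjusted p = 0.000306, log2 fold change 1.40, SE 0.19).

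**Figure D3:**
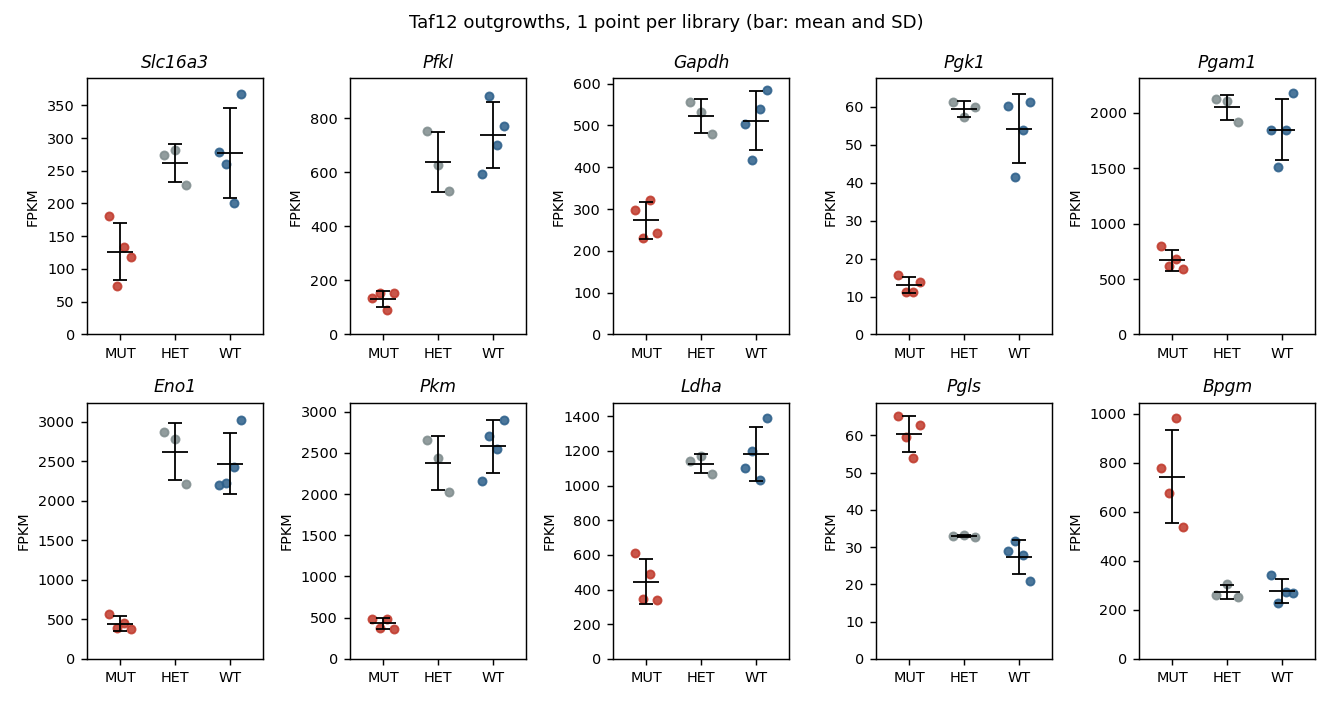
FPKM (vertical axes, linear from 0) of 10 members in Taf12 outgrowths labelled MUT, HET and WT (horizontal axes), with 1 point per library and bars for the mean and SD. In the first 8 panels all MUT points lie below all HET and WT points, and in the Pgls and Bpgm panels all lie above them.

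At the fate of pyruvate, lactate dehydrogenase and the kinase that restrains pyruvate oxidation fell. Ldha was at 609, 343, 492 and 339 FPKM in MUT, 1140, 1173 and 1066 in HET and 1103, 1202, 1030 and 1392 in WT, 2.65-fold lower (adjusted p = 0.000256, log2 fold change −1.44, SE 0.19). Pdk1, the kinase that switches off pyruvate dehydrogenase, was at 5.3, 0.652, 2.93 and 1.68 in MUT and 9.51, 12.9, 10.2 and 9.92 in WT, 4.03-fold lower (adjusted p = 0.00244, log2 fold change −1.84, SE 0.35). Both genes were lower in each MUT library than in any WT library. Pdha1 and Pdhb, subunits of pyruvate dehydrogenase itself, were not called. They were at 37.9 ± 9.52 and 416 ± 57.6 FPKM in MUT and 51.8 ± 2.08 and 492 ± 38.1 in WT (adjusted p = 0.0531 and 0.115).

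In the pentose phosphate pathway 1 of 6 genes was called, and it rose. Pgls, the lactonase of the oxidative arm, was at 65.1, 59.5, 54 and 62.9 FPKM in MUT, 33.1, 33.2 and 32.7 in HET and 29, 31.7, 27.9 and 20.8 in WT. No MUT library overlapped the others, and the mean was 2.21-fold that of WT (adjusted p = 0.00024, log2 fold change 1.13, SE 0.14). The dehydrogenases on either side of it were not called: G6pdx, the entry enzyme, was at 6.77 ± 1.49 FPKM in MUT and 6.62 ± 1.12 in WT, and Pgd was at 34.2 ± 1.56 in MUT and 35.4 ± 4.24 in WT. A missed threshold does not show that the levels were equal. Of the non-oxidative arm, Tkt (transketolase) was at 182 ± 31.2 in MUT and 227 ± 13.8 in WT, Taldo1 (transaldolase) at 2943 ± 521 in MUT and 3102 ± 348 in WT, and Rpia, the ribose isomerase, at 1.14 ± 0.704 in MUT and 1.58 ± 0.202 in WT.

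These calls changed little between settings: 14 to 19 members were called under the 16 alternatives, and of the 15 calls that of Hk1 alone was lost in any. Several of these genes, such as Gapdh, Pgk1, Ldha and Eno1, have many pseudogene copies in the mouse genome, and how the authors treated reads shared with them is not given in the sources used here.

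Cell type markers moved in the same libraries. Summed over 12 primitive and visceral endoderm markers, FPKM were 12.1 to 192.8 in MUT, 168.5 to 414.7 in HET and 427.6 to 1648 in WT outgrowths, and 7 of the 10 tested were called lower in MUT. The HET sums were below each WT sum too, though no endoderm marker was called in HET. Apob was at 0 in each MUT and HET library and in 1 of 4 WT libraries. Summed over 10 trophectoderm markers, FPKM were 32493 to 44837 in MUT, 15903 to 17408 in HET and 10920 to 16506 in WT. Krt8, Krt18 and Hand1 made up most of each sum. Of the 10 markers 5 were called higher, among them Krt8 (adjusted p = 0.000206, log2 fold change 2.37, SE 0.29), and 1 lower, Tead4. The 5 giant cell markers, which share Hand1 with the trophectoderm list, summed to 12391 to 21782 in MUT, 27021 to 31268 in HET and 24021 to 31578 in WT, with 1 called higher and 2 lower. Of 8 parietal endoderm markers Nid1 was called higher and 5 lower. Sparc is on both endoderm lists and is counted as lower in both. The parietal sums were 787.8 to 2668 in MUT, 456.0 to 1026 in HET and 776.9 to 1201 in WT. Of the 10 epiblast markers 6 were tested, and Utf1 and Esrrb were called lower and Dppa5a higher. Their sums of 5118 to 12289 in MUT, 894.3 to 1152 in HET and 915.3 to 2016 in WT were mostly Dppa5a, at 5140, 12136, 4934 and 10094 FPKM in MUT and 1257, 607, 1444 and 283 in WT. Sox2, Esrrb, Fgf4 and Tdgf1 were at 0 in every MUT library, but Fgf4 and Tdgf1 were also at 0 in every HET library and in 3 and 2 of the 4 WT libraries, and Sox2 was at most 0.0857 FPKM in WT. The part of these cell types, and of the higher share of mitochondrial reads, in the members' changes was not tested.

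The fall was larger in outgrowths than in Taf12 blastocysts for 6 members, by a test of the difference between the MUT effects at both stages. The difference was called for 6 of 31 members tested, all negative, beside 5.6% of all 15053 genes called negative and 5.41% positive. For Pkm it was −2.62 (SE 0.22, adjusted p = 1.31e-07) on the log2 scale: MUT blastocysts had 931, 629 and 701 FPKM and WT blastocysts 754, 677, 764, 753 and 692, groups that overlapped, whereas the outgrowth groups lay far apart. Eno1 differed by −1.76 (SE 0.24, adjusted p = 8.22e-05), Pgk1 by −1.51 (SE 0.28, adjusted p = 0.00124) and Pgam1 by −1.12 (SE 0.19, adjusted p = 0.000627). Pfkl differed by −2.22 (SE 0.43, adjusted p = 0.00214). Slc16a3 differed by −1.48 (SE 0.44, adjusted p = 0.0343), from a blastocyst level of 1.23, 0 and 1.06 FPKM in MUT and 0.466, 1.34, 0, 0.118 and 0.118 in WT, and its call was lost in 5 of 8 alternatives (adjusted p = 0.592 by voom). The differences of Gapdh, −0.50 (SE 0.26, adjusted p = 0.229), and Ldha, −1.93 (SE 0.91, adjusted p = 0.195), were not called. By voom 9.7% of all genes and 6 members were called, 5 negative and 1 positive (Pfkm). Blastocyst MUT 1, the library that stood apart, was left out as a check added after the data were seen. Without it Pkm, Eno1, Pgk1, Pgam1 and Pfkl were called as before (−1.28 to −2.46 on the log2 scale), Slc16a3 was not (adjusted p = 0.0845) and Hk1 was (adjusted p = 0.0104), so that 6 members were called.

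**Figure D4:**
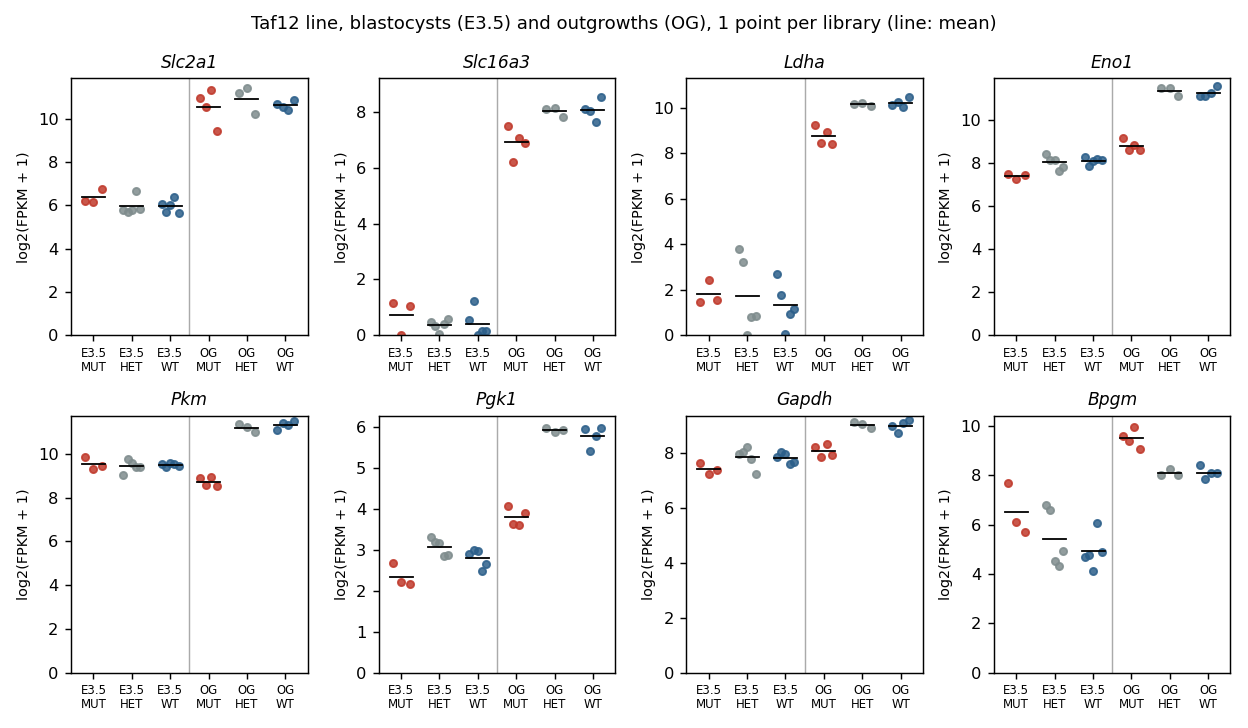
Log2(FPKM + 1) (vertical axes) of 8 members in the Taf12 line, with E3.5 blastocysts left and outgrowths right of the grey line and 1 point per library for MUT, HET and WT (black line: mean). For Eno1, Pkm and Pgk1 the MUT points leave the WT points in outgrowths much further than in blastocysts, where Pkm and Pgk1 overlap. For Bpgm the MUT points lie above all WT points in outgrowths. The stages were normalized separately.

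At E6.5 the embryos labelled Taf13 MUT had less of the lactate end and more of 2 pentose phosphate genes, while Bpgm was the only gene called between hexokinase and pyruvate kinase. Of 30 members tested, 4 were lower and 2 higher, beside 6.41% of all 14406 genes called lower, 6.66% higher and 13.1% in all (15.5% by voom). An unadjusted p under 0.05 was found for 8 members and 28.9% of all genes. The median log2 fold change was 0.04 over the members and 0.03 over all genes. Pfkfb2 and Rpia were below the filter of FPKM 1 in 2 libraries. The MUT group has 2 embryos.

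The transporter and lactate dehydrogenase genes fell together. Slc16a3 was at 39.3 and 85.9 FPKM in MUT, 154 to 234 FPKM (median 200.2) in HET and 178, 242, 144 and 205 in WT, 3.06-fold lower (adjusted p = 0.00142, log2 fold change −1.68, SE 0.28). Ldha was at 1489 and 1504 in MUT, 2366 to 3744 FPKM (median 3049) in HET and 2418, 3554, 2561 and 2576 in WT (adjusted p = 0.00954, log2 fold change −0.87, SE 0.20). Both MUT embryos lay below each of the 13 HET and WT embryos for these 2 genes. Ldhb, the lactate dehydrogenase subunit of heart and of the egg, was at 3.87 and 9.34 in MUT, 10.7 to 36 FPKM (median 20.6) in HET and 17.4, 24.1, 18.6 and 20.4 in WT (adjusted p = 0.0137, log2 fold change −1.56, SE 0.38). Bpgm was at 264 and 363 in MUT, 459.5 to 588 FPKM (median 493.4) in HET and 514, 509, 545 and 489 in WT (adjusted p = 0.00733, log2 fold change −0.73, SE 0.16). Its direction was thus opposite to that in Taf12 MUT outgrowths, a contrast between lines that was not tested.

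Of the pentose phosphate genes, Pgls was at 108 and 92.6 FPKM in MUT, 28.5 to 43.9 FPKM (median 38.8) in HET and 33.8, 37.1, 43.7 and 40.4 in WT, 2.59-fold higher (adjusted p = 0.000777, log2 fold change 1.35, SE 0.21). Taldo1 was at 2925 and 4181 in MUT, 1776 to 2704 FPKM (median 2091) in HET and 2291, 2210, 1634 and 2380 in WT (adjusted p = 0.021, log2 fold change 0.73, SE 0.19). For both, the MUT embryos were above all others. Tkt and G6pdx, and of the trunk Gpi1 and Gapdh, were also above each HET and WT embryo in both MUT embryos but were not called. Tkt was at 245 and 282 in MUT and 201, 181, 71.7 and 196 in WT (adjusted p = 0.233), and G6pdx at 10.6 and 12.6 in MUT and 8.02, 7.44, 4.78 and 8.57 in WT (adjusted p = 0.226). In all, 12 of the 30 members had MUT and WT embryos that did not overlap, beside 36.5% of all genes tested.

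Of the trunk genes that fell in Taf12 MUT outgrowths, Pkm, Eno1 and Pfkl were spread widely among HET and WT embryos at E6.5. Pgam1 was spread less, at 2674 and 2887 FPKM in MUT and 2133 to 2851 in WT. Pkm was at 2094 and 3021 FPKM in MUT, 1735 to 5338 FPKM (median 3560) in HET and 4617, 4038, 1507 and 4601 in WT (adjusted p = 0.582, log2 fold change −0.42, SE 0.47). Eno1 was at 2908 and 3243 in MUT and 4052, 3555, 1705 and 3870 in WT (adjusted p = 0.975), and Pfkl at 682 and 888 in MUT and 885, 649.9, 348 and 856 in WT (adjusted p = 0.695). WT 3 was the lowest WT embryo for each of these 3 genes, and HET 8 the lowest HET embryo. Neither was low for Ldha or Pgk1: Pgk1 was at 74.7 and 104 in MUT and 89.2, 109.7, 104 and 74.4 in WT, with HET 8 at 134 FPKM. Without WT 3, 6 members were called as before.

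**Figure D5:**
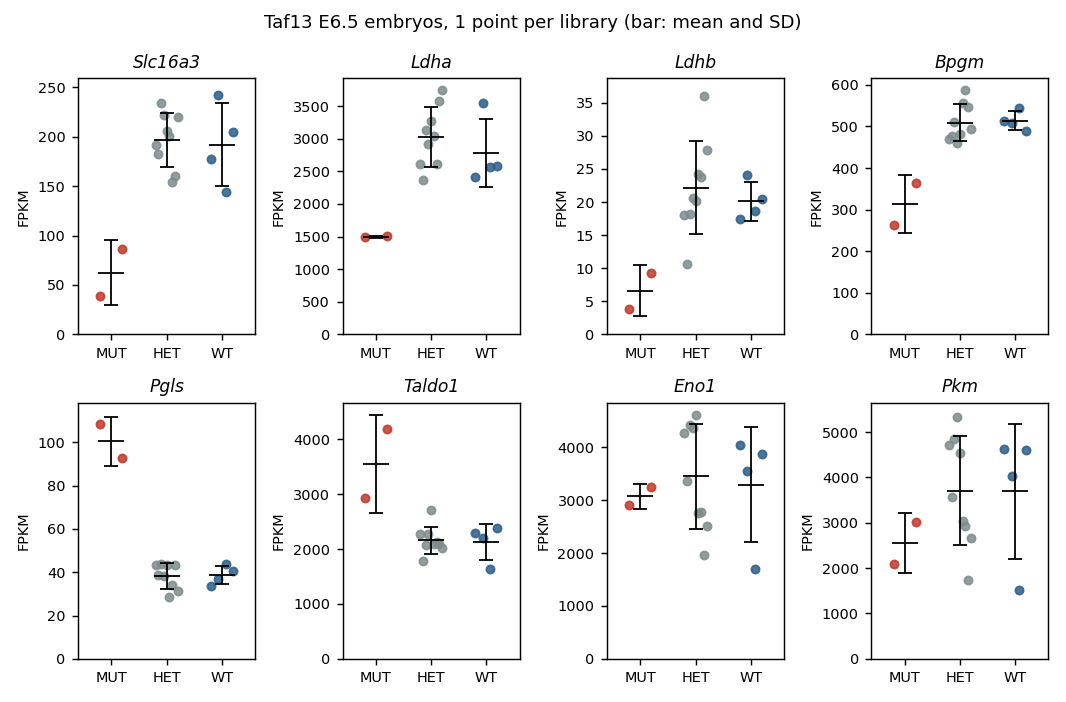
FPKM (vertical axes, linear from 0) of 8 members in Taf13 E6.5 embryos labelled MUT, HET and WT (horizontal axes), with 1 point per embryo and bars for the mean and SD. Both MUT points lie below all WT points for Slc16a3, Ldha, Ldhb and Bpgm and above them for Pgls and Taldo1, while Eno1 and Pkm overlap.

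The calls of Slc16a3 and Pgls held under all alternatives run. Those of Ldha, Ldhb, Bpgm and Taldo1 leaned on single MUT embryos, the lone one left being assumed to vary like the other groups. Without MUT 1, Ldha (adjusted p = 0.0975), Ldhb (adjusted p = 0.267) and Bpgm (adjusted p = 0.17) were not called, and without MUT 2 Taldo1 was not (adjusted p = 0.195). Markers again moved with the groups. The 10 epiblast markers summed to 711 and 775 FPKM in MUT and 3175 to 4720 in WT, with 6 of 9 tested called lower, Klf4 called higher (adjusted p = 0.00287, log2 fold change 1.66, SE 0.31) and Pou5f1 and Fgf4 at 0 in both MUT embryos. The 8 decidual markers, genes expressed in the mother's uterus, summed to 2169 and 4819 FPKM in MUT, 31.3 to 2614 in HET and 133.4 to 4615 in WT. Of the 8 markers 6 were called higher. Not all are limited to the uterus: Bmp2, among the 6, was at 0.434 to 2.69 FPKM in WT outgrowths, which were grown in culture. The highest WT sum of the decidual markers was in WT 3 (4615) and the highest HET sum in HET 8 (2614). Prl8a2, which was not called, made up most of these and of the MUT sums. It was at 1269 and 3961 FPKM in MUT, 2315 in HET 8 and 4333 in WT 3. Parietal endoderm markers summed to 818 and 1718 FPKM in MUT and 183.3 to 694.5 in WT, with 5 of 8 called higher. Of the 12 primitive and visceral endoderm markers 4 were called higher, with sums of 6785 and 9128 in MUT and 7344 to 11692 in WT. Sparc, on both endoderm lists, is counted as higher in both. Of 5 trophoblast giant cell markers none of 4 tested was called, and of 5 blood markers none of 2, with blood sums of 227.6 and 460.3 in MUT and 3.99 to 204.7 in WT. The part of maternal tissue or of fewer epiblast transcripts in the members' changes was not tested.

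Against Taf13 blastocysts, the MUT effect at E6.5 differed for 3 of 32 members, beside 4.45% of all 16228 genes (2.42% positive and 2.03% negative). Slc16a3 differed by −2.09 (SE 0.43, adjusted p = 0.00615), Ldhb by −1.56 (SE 0.44, adjusted p = 0.0441) and Taldo1 by 0.78 (SE 0.21, adjusted p = 0.0379) on the log2 scale. Ldhb had 0 reads in all Taf13 MUT and WT blastocysts, so its difference is that of E6.5 alone. Slc16a3 was near 0 in these blastocysts, at 0.562, 1.33 and 0 FPKM in MUT and 0, 0.143, 0.547 and 0 in WT. A fall of Slc16a3 could hardly show at that stage, so its difference rests mainly on E6.5. These calls depended on the setting: voom on recovered reads called 1 member, Taldo1, and 4.53% of all genes, and a pseudocount of 0.1 left the same call alone. With median ratio scaling 3 were called, Taldo1 and Gapdh positive and Slc16a3 negative, and Ldhb was not (adjusted p = 0.0516). Without E6.5 WT 3, a check added after the data were seen, the 3 calls were kept.

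In blastocysts 1 member was called in the 3 lines together. In Taf5 MUT blastocysts Bpgm was at 0, 0, 0 and 1.63 FPKM, against 103, 42.1 and 41.6 in WT (adjusted p = 0.0255, log2 fold change −5.50, SE 0.55). The MUT libraries held 2 reads of Bpgm in all and the WT libraries 239, a 142-fold difference per normalized read with a 95% counting interval of 38.9 to 1181. The call held in 4 of 14 alternatives. It was lost without any 1 of the WT libraries or of MUT 1, MUT 2 and MUT 3 (adjusted p = 0.0649 to 0.11), and by voom (adjusted p = 0.417). Bpgm passed the filter through its WT libraries, where it is high, and was not called without the filter (adjusted p = 0.0845). It was 1 of 27 members tested, beside 0.111% of all 10834 genes called (0.0738% lower). An unadjusted p under 0.05 was found for 4 members and 8.13% of all genes, and the median log2 fold change was −0.10 over the members and −0.04 over all genes. Next by p came Gapdh, at 112, 152, 192 and 160.5 in MUT and 224, 238 and 235 in WT (adjusted p = 0.502, log2 fold change −0.61, SE 0.21), and Taldo1, at 3498, 3585, 2939 and 3149 in MUT and 4041, 4042 and 3777 in WT (adjusted p = 0.578, log2 fold change −0.27, SE 0.11). In both cases the groups did not overlap, as for 6 of the members and 9.85% of all genes.

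In Taf12 MUT blastocysts none of the 30 members tested was called by limma, 7 had an unadjusted p under 0.05 and voom called 0. Without MUT 1, the library that stood apart, the count was also 0. Over all 12741 genes 1.44% were called, 0.942% lower and 0.502% higher, and 16.1% had such a p. By voom 1.49% were called, split into 91 higher and 99 lower, where limma had 64 higher and 120 lower. The median log2 fold change was −0.03 over the members and −0.08 over all genes. Pgls had the smallest p, at 43.8, 36 and 33.2 FPKM in MUT and 16.1, 17.4, 26.5, 11.8 and 13.7 in WT (adjusted p = 0.0703, log2 fold change 1.13, SE 0.28), with groups that did not overlap, as for 6 members and 9.77% of all genes. Eno1 was at 176, 149.7 and 172 in MUT and 306, 233, 267, 285 and 278 in WT (adjusted p = 0.0795, log2 fold change −0.72, SE 0.18), again without overlap. Eno1 was called against WT and HET together (adjusted p = 0.0389), and Pgls without WT 3 (adjusted p = 0.0377). Gpi1 followed, at 427, 521 and 544 in MUT and 305, 296, 411, 278 and 265 in WT (adjusted p = 0.107, log2 fold change 0.69, SE 0.20). Pfkm and Pfkp had 0 reads in all 3 MUT libraries, and 4 to 129 and 0 to 55 reads per library in WT. The difference was at least 13.9-fold lower for Pfkm, with the floor at 3 reads per library, and neither was called (adjusted p = 0.323 and 0.366). Among cell type markers in these blastocysts, 2 of 10 epiblast and 1 of 9 endoderm genes were called lower and 1 of 7 parietal endoderm genes, Plat, higher. Plat was at 9574, 3285 and 2368 FPKM in MUT and 478 to 739 in WT and made up most of the parietal sums of 2508 to 9711 in MUT, while Lamb1 of the same list was at 5.44 to 21.7 in MUT and 49.4 to 226.7 in WT and not called.

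In Taf13 MUT blastocysts none of the 29 members tested was called by limma or voom and 3 had an unadjusted p under 0.05, beside 0.134% of all 11965 genes called by limma, 0.00836% by voom and 9.34% with such a p. Groups did not overlap for 4 members and 8.42% of all genes. The median log2 fold change was −0.21 over the members and −0.05 over all genes. Gapdh was at 175, 176 and 177 FPKM in MUT and 256, 264, 258 and 243 in WT (adjusted p = 0.25, log2 fold change −0.53, SE 0.12). Its 3 MUT libraries were close together and below each WT library. Pdha1 was at 176, 174 and 211 in MUT and 131, 139, 147 and 131 in WT (adjusted p = 0.424, log2 fold change 0.44, SE 0.15), and Pkm at 487, 547 and 731 in MUT and 811, 692, 824 and 798 in WT (adjusted p = 0.463, log2 fold change −0.43, SE 0.17). Pdha1 lies on the X chromosome, and the groups differed in sex. Y-linked genes had 50 or more reads in 1 of 3 MUT and 4 of 4 WT blastocysts. The part of sex in the level of Pdha1 was not tested.

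No member was called in HET embryos of any line or stage. In Taf12 HET outgrowths 3 of 30 had an unadjusted p under 0.05, beside 0.0306% of all genes called and 4.37% with such a p. They were Slc2a3, at 20.2, 10.1 and 21.6 FPKM in HET and 41.5, 141, 90.6 and 33.9 in WT (adjusted p = 0.607, log2 fold change −1.92, SE 0.50), Pdhb and Hk1. Pdhb was at 648, 644 and 564 in HET and 474, 474, 549.5 and 472 in WT, and Hk1 was given above. In Taf12 HET blastocysts, Taf13 HET blastocysts and Taf13 HET E6.5 embryos 0 members had such a p, and 3.51, 4.32 and 1.21% of all genes did. Limma called 0 genes of any kind in these 3 comparisons, and voom 0 in all 4. The median log2 fold change of the members lay between −0.06 and 0.10 in the 4 HET comparisons.

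Of 50 further genes of sugar metabolism, 36 were tested in Taf12 MUT outgrowths and 8 were higher and 7 lower, with a median log2 fold change of −0.02. These counts are near the shares of all genes, of which 18% were called higher and 19.9% lower, and say nothing particular of the list. Eno3, the muscle enolase, was at 27 ± 8.35 FPKM in MUT and 0.52 to 2.69 in WT (adjusted p = 3.39e-05, log2 fold change 3.60, SE 0.32), so that this enolase rose while Eno1 fell. Prps1, which makes the ribose donor of nucleotide synthesis, was at 41.9 ± 34 in MUT and 2.82 ± 1.29 in WT (adjusted p = 0.00247, log2 fold change 3.12, SE 0.60). Mpc2, a subunit of the mitochondrial pyruvate carrier, was at 54.1 ± 6.59 in MUT and 19.2 ± 1.88 in WT (adjusted p = 4.02e-05, log2 fold change 1.44, SE 0.13). Pdp2, the phosphatase that switches pyruvate dehydrogenase on, and Pdhx, a structural part of that complex, rose by 1.22 and 0.87 on the log2 scale (adjusted p = 0.00108 and 0.00119). Pgm1, a phosphoglucomutase that joins glycogen to glycolysis, was at 8.46 ± 3.49 in MUT and 29.5 ± 10.2 in WT (adjusted p = 0.00376, log2 fold change −1.72, SE 0.36).

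Of 15 regulators tested there, 5 were lower and 3 higher, beside 19.9% and 18% of all genes. Hif1a was at 302 ± 12.1 FPKM in MUT, 623 ± 89.8 in HET and 583 ± 117 in WT (adjusted p = 0.000748, log2 fold change −0.93, SE 0.14). Myc was at 5531 ± 905 in MUT and 2171 ± 354 in WT (adjusted p = 0.000115, log2 fold change 1.35, SE 0.15), while its relative Mycn was at 51.2 ± 26.2 in MUT and 434 ± 59.2 in WT (adjusted p = 0.000112, log2 fold change −3.22, SE 0.36). Of 22 further listed HIF1 targets, which are not members but share Egln3 with the regulators and Pfkfb4 with the further sugar genes, 19 were tested. Of these targets 7 were lower and 2 higher, beside the same shares of all genes, with a median log2 fold change of −0.49. Among them P4ha1, a collagen prolyl hydroxylase, was at 1234 ± 331 in MUT and 2927 ± 692 in WT (adjusted p = 0.00152, log2 fold change −1.26, SE 0.22), and Stc2, a secreted glycoprotein, at 2.31 ± 1.75 in MUT and 29.6 ± 10.7 in WT (adjusted p = 0.000146, log2 fold change −3.28, SE 0.38). Ndrg1, a stress-induced gene, went up instead, at 796 ± 406 in MUT and 56.7 ± 33.2 in WT (adjusted p = 0.000181, log2 fold change 3.82, SE 0.46), as did Ddit4, an inhibitor of mTORC1 signalling, at 1341 ± 670.4 in MUT and 361 ± 58 in WT (adjusted p = 0.00173, log2 fold change 1.76, SE 0.32). In Taf12 MUT blastocysts 1 regulator of 14 tested and 1 further sugar gene of 32 were called, beside 1.44% of all genes. The regulator was Hif1a, at 27.6 ± 8.27 in MUT, 109.8 ± 45 in HET and 152 ± 33 in WT (adjusted p = 0.0118, log2 fold change −2.43, SE 0.38). The sugar gene was Pck2, a mitochondrial enzyme of gluconeogenesis, with 0 reads in the 3 MUT libraries, against 124 ± 93 FPKM in WT (adjusted p = 0.00264). With the floor at 3 reads per library Pck2 was at least 35.2-fold lower, and it passed the filter without its MUT libraries.

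At E6.5 in Taf13 MUT 7 further sugar genes were higher and 7 lower of 43 tested, beside 6.66% and 6.41% of all genes, with a median log2 fold change of 0.05. Prps1 and Prps2, paralogs, moved apart: Prps1 was at 8.73 ± 2.33 FPKM in MUT and 49.1 ± 14.3 in WT (adjusted p = 0.00141, log2 fold change −2.34, SE 0.39), and Prps2 at 40.2 ± 8.05 in MUT and 14.5 ± 3.53 in WT (adjusted p = 0.00157, log2 fold change 1.42, SE 0.24). Eno3 was lower, at 1.83 ± 0.714 in MUT and 9.27 ± 3.19 in WT (adjusted p = 0.00209, log2 fold change −1.82, SE 0.32). Of the 15 regulators 3 were higher and 2 lower, and of 21 HIF1 targets tested 3 were higher and 2 lower, beside the same shares of all genes. Txnip, an inhibitor of glucose uptake, was at 8.71 ± 2.58 in MUT and 1.16 ± 0.623 in WT (adjusted p = 0.00139, log2 fold change 2.19, SE 0.36), and P4ha1 was higher, at 3609 ± 1198 in MUT and 1710 ± 157 in WT (adjusted p = 0.026, log2 fold change 1.04, SE 0.28). Hif1a, at 428 ± 58.5 in MUT and 318 ± 57.1 in WT, was not called. In Taf5 and Taf13 MUT blastocysts no listed gene of these 3 groups was called by limma.

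The authors' deposited table compares MUT with WT in the Taf5 line and with WT and HET together in the others. By the authors' deposited table, members were called in both directions in Taf12 outgrowths, 17 lower and 2 higher at an adjusted p under 0.05, beside 39.9% of all genes with an adjusted p. The authors' deposited table also has 5 members lower and 3 higher in Taf13 at E6.5, beside 23.4% of genes, and 5 lower and 2 higher in Taf12 at E3.5, beside 9.71%. The authors' deposited table has 2 members lower and 0 higher in Taf5 at E3.5 (1.9% of genes) and 2 lower and 1 higher in Taf13 at E3.5 (4.36%). In the authors' deposited table the log2 fold change in outgrowths was −2.54 for Pkm, −2.50 for Eno1, 1.43 for Bpgm and 1.02 for Pgls.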

How the data were processed

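Single mouse embryos were sequenced, and 57 libraries in 14 groups were used here, grouped by the labels. Per the labels, total RNA went into NEBNext Single Cell/Low Input libraries, read as paired ends on a NextSeq 500. The submitters' processing notes name Trimmomatic 0.39, FastQC 0.11.9, STAR 2.7.6a, R 4.2.1, DESeq2 1.36.0 and GRCm39 without roles; no counting tool, strand setting, rule for shared reads or set of gene lengths is given in the sources used here. Deposited by the authors were FPKM per library, which were found to be normalized separately for each line and stage, and a list of log2 fold changes, p-values and mean normalized counts per comparison. From these means reads were recovered here: 99.6% of values up to 500 reads were whole within 0.05, and 98.99% in the lowest library. Of the rows, 37 that repeat another row's symbol and values were dropped.

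Tests used limma 3.58.1 (trend and robust moderation, R 4.3.3) on log2(FPKM + 1), which understates changes of low genes, for genes at FPKM 1 or more in as many libraries as the smallest group of the block; all groups of a line and stage share an estimate of spread. Tests were two-sided, p-values were adjusted by Benjamini-Hochberg over all genes tested, and calls are at an adjusted p under 0.05. Whole counts were not used as the main input because the deposited unit is FPKM; voom on recovered reads is an alternative. A fold against 0 reads uses a floor of 3 reads per library; floors and 95% intervals cover counting error only. The script was tested on simulated data. Named were the members called (at most 14 per comparison, or the 3 with the smallest p where fewer than 3 were called) and of each further list at most 6 called genes, by p; genes outside that rule were chosen after their values were seen. Members and lists, cell type markers included, were chosen with earlier results of these data known. Alternatives were another pseudocount (0.1), no filter or one at FPKM 5, median ratio scaling, voom, plain moderation, the replicate number as a block, WT and HET together as control, and each library left out.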

Additional observations from a re-analysis of the deposited data

Results flagged for a closer look

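Of 113 groups of 4 to 10 libraries, 11 held a library far from the others of its group, where chance gives about 1 in 20. In Taf5 MUT blastocysts Bpgm was at 1.63 FPKM in MUT 4 and 0 in the others. In Taf12 blastocysts Aldoc was at 36.4 FPKM in HET 2 against 0 to 7.29 in the other HET, and Gpi1 at 410.6 in WT 3 against 265.3 to 305.1 in the other WT. In Taf12 MUT outgrowths MUT 1 was apart for Pfkp, at 1109 FPKM against 689 to 744, and for Hk1, at 2.24 against 0. In WT outgrowths Aldoa was at 629.9 FPKM in WT 4 against 733 to 744, Pdhb at 549.5 in WT 3 against 471.8 to 474.3, and Pdp2 at 29.2 in WT 2 against 19.9 to 21.2. In Taf13 HET blastocysts Hk1 was at 18.8 FPKM in HET 2 and 0 in the others. At E6.5 Ldha was at 3554 FPKM in WT 2 against 2418 to 2576 in the other WT, and Aldoc at 88.0 in WT 4 against 129.8 to 136.5.

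The MUT effect differed between the stages of a line in 9 cases, with Slc16a3 among them in both lines. The difference was tested on the log2 scale (limma, adjusted p over all genes). In the Taf12 line, outgrowth minus blastocyst, it was −2.62 for Pkm, −2.22 for Pfkl, −1.76 for Eno1, −1.51 for Pgk1, −1.48 for Slc16a3 and −1.12 for Pgam1. In the Taf13 line, E6.5 minus blastocyst, it was −2.09 for Slc16a3, −1.56 for Ldhb and 0.78 for Taldo1. Of all genes tested, 11% were called in the Taf12 line and 4.45% in the Taf13 line. The Taf12 call of Slc16a3 held in 3 of 8 alternatives, and the other Taf12 calls held in all 8. In the Taf13 line Slc16a3 held in 5 of 8, Ldhb in 4 and Taldo1 in 6. Ldhb had no reads in Taf13 MUT and WT blastocysts.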

How the results depend on the processing

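Of 21 member calls named, 15 held under all alternatives run, as did 21 of 34 calls of other listed genes and 15 of 32 differences between stages. In Taf12 MUT outgrowths 14 to 19 members were called, 19 by voom. In Taf5 MUT blastocysts the 1 call became 0 without a filter, with a pseudocount of 0.1, by voom and with the replicate block, and 0 to 1 with a library left out. In Taf12 MUT blastocysts the count of 0 became 1 against WT and HET together, and 0 to 1 with a library left out. In Taf13 MUT at E6.5 the 6 calls became 2 with the replicate block and 3 to 6 with a library left out. For the Taf13 stage difference, 3 calls became 1 with a pseudocount of 0.1, 1 by voom and 0 with the replicate block. In 2 fits added after the data were seen, the Taf12 stage difference without blastocyst MUT 1 had 6 calls and the Taf13 one without E6.5 WT 3 had 3, as many as with all libraries. The cause of these changes was not tested. Ldha in Taf13 HET at E6.5 turned to −0.00 with the replicate block (adjusted p = 1). Embryos with the same replicate number did not deviate together (mean correlation −0.019 to 0.044), so the numbers are not taken as pairs. The median of all genes shifted by less than 0.1 on the log2 scale between scalings. Depth limits genes with few reads in blastocysts, such as Bpgm, Pfkm and Pfkp.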
